A study of Mus musculus with 6 samples.

Results

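The Zfp genes examined here are the 353 mouse genes whose symbol consists of Zfp, a number and at most 1 further letter, out of 21937 genes in the deposited tables, each with 1 row. A further 9 symbols that begin with Zfp fell outside this pattern, such as Zfp36l1, Zfpl1 and Zfpm1, and were not counted as members. The data are chromatin immunoprecipitation sequencing (ChIP-seq) of 2 immortalized lines made from the metanephric kidney of E11.5 mice, mK3 and mK4, both of strain CD1. For each line there are 3 libraries, namely a pull-down labelled H3K4, a pull-down labelled H3K27 and an input taken before any pull-down, and no drug or genetic change between groups is named. The study concerned histone methylation and the fate of nephron progenitor cells. Each of the 6 groups is 1 library, so no spread between replicates could be measured, no difference between the lines or the marks has a replicate check, and intervals in brackets are 95% intervals for counting error only. Each line stands for 1 immortalized culture, and a mark on some of its cells cannot be told apart from a weaker mark on all of them.

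Zfp symbols were given to mouse genes for proteins with zinc fingers, small folds held by a zinc ion that mostly bind DNA. The largest class carries a KRAB domain, which recruits TRIM28 (KAP1) and the methyltransferase SETDB1, and through them trimethylation of histone H3 at lysine 9, to silence mobile elements and imprinted genes. KRAB zinc finger genes arose by tandem duplication, lie in clusters, and their own clusters are known to carry trimethylated lysine 9 over the exons that encode the fingers, while trimethylation of lysine 4 is found at promoters in use and that of lysine 27 at genes held by Polycomb. The antibody labelled H3K4 carries the catalogue number ab8898, under which Abcam lists an antibody against H3 trimethylated at lysine 9, and the antibody labelled H3K27 carries an Active Motif number that its maker lists against trimethylated lysine 27. The label and the catalogue number of the first antibody thus name different marks, and the name on the label, H3K4, is kept below. Because the clusters are known for trimethylated lysine 9, the share of reads over the Zfp genes was set beside that of input, by chromosome and by cluster.

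The stretch before the start site is shown for 4 members that stand at the ends of the results below: Zfp830 and Zfp622, among the highest for the H3K4 antibody, Zfp423, among the highest for the H3K27 antibody, and Zfp710, the lowest for the H3K4 antibody. Each is the 250 bases before the RefSeq start of assembly GRCm38.p6, 5′ to 3′ on the gene's own strand, with every CG in capitals, the dinucleotide whose density is high at promoters of the CpG island kind.
Zfp830: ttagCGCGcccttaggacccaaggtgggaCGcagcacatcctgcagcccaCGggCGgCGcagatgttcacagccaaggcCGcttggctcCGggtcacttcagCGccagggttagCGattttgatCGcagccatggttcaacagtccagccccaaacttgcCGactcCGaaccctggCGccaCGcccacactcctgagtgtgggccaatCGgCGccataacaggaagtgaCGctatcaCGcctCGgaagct
Zfp622: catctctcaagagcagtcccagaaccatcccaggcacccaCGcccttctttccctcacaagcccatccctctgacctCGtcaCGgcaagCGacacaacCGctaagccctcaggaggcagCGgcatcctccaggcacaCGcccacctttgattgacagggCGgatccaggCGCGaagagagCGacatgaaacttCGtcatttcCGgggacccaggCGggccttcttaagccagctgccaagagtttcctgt
Zfp423: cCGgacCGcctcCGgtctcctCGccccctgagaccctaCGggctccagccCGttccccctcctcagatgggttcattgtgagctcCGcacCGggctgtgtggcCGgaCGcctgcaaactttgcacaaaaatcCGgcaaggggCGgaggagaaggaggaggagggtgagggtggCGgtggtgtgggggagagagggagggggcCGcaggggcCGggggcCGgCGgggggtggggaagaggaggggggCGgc
Zfp710: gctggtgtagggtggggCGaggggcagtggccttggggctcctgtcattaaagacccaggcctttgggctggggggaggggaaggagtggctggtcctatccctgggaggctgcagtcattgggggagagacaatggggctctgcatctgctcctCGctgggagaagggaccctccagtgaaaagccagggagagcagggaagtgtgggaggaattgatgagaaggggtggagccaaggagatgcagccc
The windows are chr11:82764095-82764344 on the plus strand for Zfp830, chr15:25984116-25984365 on the plus strand for Zfp622, chr8:87959596-87959845 on the minus strand for Zfp423 and chr7:80024564-80024813 on the plus strand for Zfp710. They hold 20, 14, 18 and 2 CG, in that order. Zfp423 has 2 such windows in the table, and the one richer in CG is shown. CG reads the same on both strands. Among the 288 members with a sequence 99.7% held at least 1 CG and the median was 12, and among all 16508 genes with a sequence 93.6% held at least 1 and the median was also 12. The deposited reads are listed against exon length, and the windows lie before the first exon, so no read count of their own is given for them here.

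Total reads over genes ran from 311409 in the mK3 input to 714011 in the mK4 H3K4 library, and both inputs were shallower than every ChIP library. The members held 11554 reads in mK3 H3K4, 14551 in mK4 H3K4, 9954 in mK3 H3K27, 8779 in mK4 H3K27, 6238 in mK3 input and 7924 in mK4 input. These were 1.94%, 2.04%, 1.68%, 1.82%, 2.00% and 2.05% of the libraries' reads. As RPKM (reads per exon kilobase, scaled to library size), the members' median was 12.6 and 13.9 in the H3K4 libraries of mK3 and mK4, 11.7 and 12.5 in the H3K27 libraries and 13.9 and 13.7 in input. Over all genes the medians were 13.5 and 13.1, 15.0 and 13.7, and 14.3 and 13.9. Between 1 and 4 members had no read in a given library. Zfp131, listed on chromosome 13_random, had none in any library, and neither had the 3 other genes listed there. Zfp781 had 1 read in all 6 together. Only 224 of the 353 members had at least 10 input reads in both lines. Many of these genes are close copies, and how reads that match several places were treated is not given in the sources used here, so single members of a cluster are uncertain.

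With the H3K4 antibody the Zfp genes as a whole lay at the level of input in mK4 and just under it in mK3. Their read share was 0.969 times that of input in mK3 (0.939 to 0.999) and 0.995 times in mK4 (0.968 to 1.02). Their H3K27 share was below input in both lines, at 0.838 (0.812 to 0.865) in mK3 and 0.890 (0.864 to 0.918) in mK4. Neither antibody thus showed a higher share over these genes than over all genes, which are at 1 by construction.

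Other groups of genes moved away from input with the same libraries. The 98 ribosomal protein genes, which are active in growing cells, stood at 1.32 (1.20 to 1.45) in mK3 and 1.32 (1.22 to 1.44) in mK4 with the H3K4 antibody, and at 0.665 and 0.631 with the H3K27 antibody. The 38 transcription factors of lineages foreign to the kidney, a usual target of Polycomb, stood at 2.31 (2.08 to 2.57) and 2.42 (2.17 to 2.70) with the H3K27 antibody and at 0.897 and 0.886 with the H3K4 antibody. The 1126 olfactory receptor genes, which also lie in clusters of tandem copies and are silent outside the nose, stood at 0.860 and 0.912 with the H3K4 antibody and at 1.54 and 1.37 with the H3K27 antibody. The Zfp genes therefore differed from each of these groups beyond counting error with both antibodies in both lines, except that the intervals of the lineage factors overlapped theirs with the H3K4 antibody in both lines. The 42 zinc finger genes with other symbols, such as the Zbtb, Zic and Ikzf families, stood at 0.946 and 0.998 with the H3K4 antibody and at 0.951 and 0.902 with the H3K27 antibody.

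**Figure D1:**
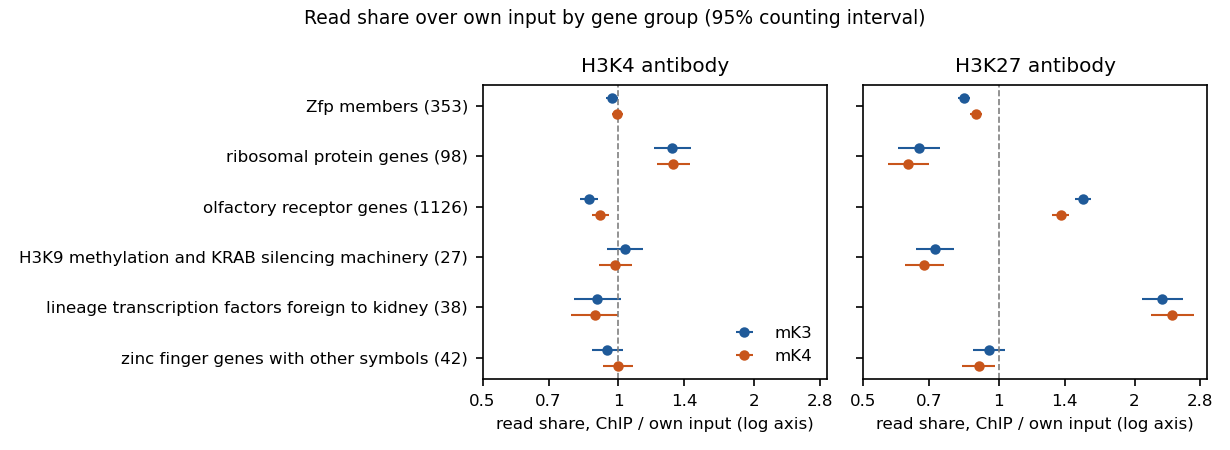
Read share of each gene group in a ChIP library divided by its share in the input of the same line (log axis), for the H3K4 antibody on the left and the H3K27 antibody on the right, with the number of genes in brackets, points for mK3 and mK4 and bars for the 95% counting interval. The Zfp genes lie at or just under 1 with the H3K4 antibody, where the ribosomal protein genes lie at 1.32 in both lines, and under 1 with the H3K27 antibody.

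Gene by gene, a member was called marked where its scaled count plus 5 was at least 2-fold that of its own input. With the H3K4 antibody 16 members (4.53%) were marked in mK3, where 4.94% of all genes were, and 9 (2.55%) in mK4, where 3.69% of all genes were. Not 1 member was marked with this antibody in both lines, against 178 of all genes (0.811%). The H3K27 antibody marked 15 members (4.25%) in mK3, where 10.3% of all genes were, and 10 (2.83%) in mK4, where 9.06% of all genes were. That share was under the share of all genes in both lines, and the members' median log2 ratio to input was -0.20 in mK3 and -0.13 in mK4, against 0.00 for all genes in both. For the H3K4 antibody the members' median was -0.07 in mK3 and -0.02 in mK4, again against 0.00. Most calls rest on few reads: with at least 10 input reads in both lines, 5 of the 16, 1 of the 9, 2 of the 15 and 1 of the 10 were left. These are 2.23%, 0.446%, 0.893% and 0.446% of the 224 members with such input, where 2.20%, 2.25%, 4.38% and 5.22% of all genes with such input were marked.

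In the other direction, 15 members (4.25%) lay at least 2-fold below input with the H3K4 antibody in mK3 and 8 (2.27%) in mK4, where 3.63% and 2.53% of all genes did. For H3K27 26 members (7.37%) did in mK3 and 19 (5.38%) in mK4, against 5.36% and 6.11% of all genes. Counting intervals of single members, which need no fold, were set beside those of all genes with reads. With the H3K4 antibody 23 of 351 members (6.55%) lay above 1 and 33 (9.40%) below in mK3, where 6.47% and 7.36% of all genes did. In mK4 30 of 351 (8.55%) lay above and 28 (7.98%) below, where 6.84% and 7.25% of all genes did. For H3K27 20 of 352 (5.68%) lay above and 57 (16.2%) below in mK3, where 11.7% and 11.4% of all genes did, and 24 of 350 (6.86%) above and 48 (13.7%) below in mK4, where 12.5% and 11.8% did. For H3K27 the members' share was thus lower above 1 and higher below it than that of all genes in both lines.

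Both antibodies at once marked Zfp810 in mK3 (1 member, where 1.39% of all genes carried both) and Zfp352 in mK4 (1 member, against 0.780% of all genes). Zfp810 had 33 and 29 H3K4 reads in mK3 and mK4, 39 and 18 H3K27 reads and 7 and 23 input reads. Its call in mK3 came with the lower of its input counts. Zfp352 had 11 and 15 H3K4 reads, 13 and 9 H3K27 reads and 2 and 0 input reads, too few to read either mark.

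**Figure D2:**
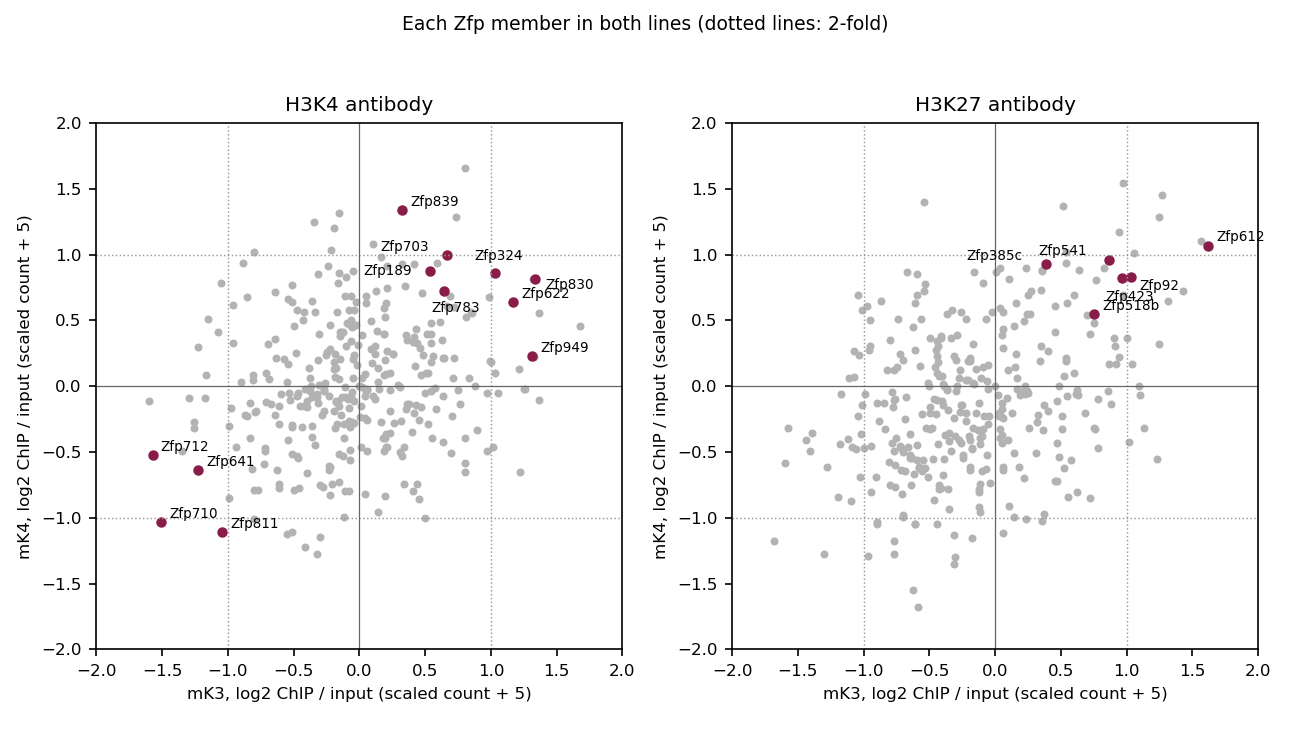
Each of the 353 members as a point, with the log2 ratio of ChIP to own input (scaled count plus 5) in mK3 on the horizontal and in mK4 on the vertical axis, for the H3K4 antibody on the left and the H3K27 antibody on the right; dotted lines mark 2-fold, and dark points are the members with at least 10 input reads in both lines that rank highest or lowest on the mean of the lines. No point lies past 2-fold in both lines at the upper right with the H3K4 antibody, and 5 do with the H3K27 antibody.

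By chromosome, none of the 16 with at least 5 members had an H3K4 interval above 1 in both lines. The interval lay above 1 on chromosomes 4, 8 and 14 in mK3 and on chromosome 6 in mK4. On chromosome 8 the 24 members stood at 1.16 (1.03 to 1.31) in mK3 and 1.10 (0.991 to 1.22) in mK4. Intervals lay below 1 on chromosomes 2, 10, 13, 17, 18 and X in mK3 and on 5 and 13 in mK4. The ratios ran from 0.716 to 1.35 in mK3 and from 0.866 to 1.30 in mK4. With 16 intervals for each library, some miss 1 by counting error alone.

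Chromosome 7 holds the most members, 83. Their reads were 1546 and 3078 with the H3K4 antibody in mK3 and mK4, 1386 and 1811 with the H3K27 antibody and 814 and 1647 in input. They stood at 0.994 (0.912 to 1.08) and 1.01 (0.953 to 1.08) with the H3K4 antibody, so the largest set of these genes was at the level of input in both lines. Their H3K27 ratios were 0.894 and 0.884, while those of the 1952 other genes of the chromosome were 1.12 and 1.05.

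On chromosome 13 the 34 members lay below input in all 4 comparisons, each with an interval below 1. Their reads were 748 and 1053 with the H3K4 antibody, 650 and 666 with the H3K27 antibody and 453 and 648 in input. The H3K4 ratios were 0.864 (0.768 to 0.973) in mK3 and 0.880 (0.797 to 0.972) in mK4, and the H3K27 ratios 0.753 and 0.826. The 777 other genes of chromosome 13 stood at 1.01 and 0.998 with the H3K4 antibody and at 0.995 and 0.984 with the H3K27 antibody, so the lower share was not seen over the rest of the chromosome. Members of chromosomes 2, 5, 15, 16 and 18 also had ratios under 1 in all 4 comparisons, though not all of their intervals lay below 1. For the H3K27 antibody the interval lay below 1 on chromosomes 2, 5, 7, 13, 15, 16, 17 and 18 in mK3. In mK4 it did on chromosomes 5, 7, 13, 15, 16 and 18. Chromosome X, with 8 members, was the only one of the 16 with an interval above 1 for the H3K27 antibody, at 1.23 (1.01 to 1.49) in mK4 and 1.02 (0.805 to 1.29) in mK3.

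**Figure D3:**
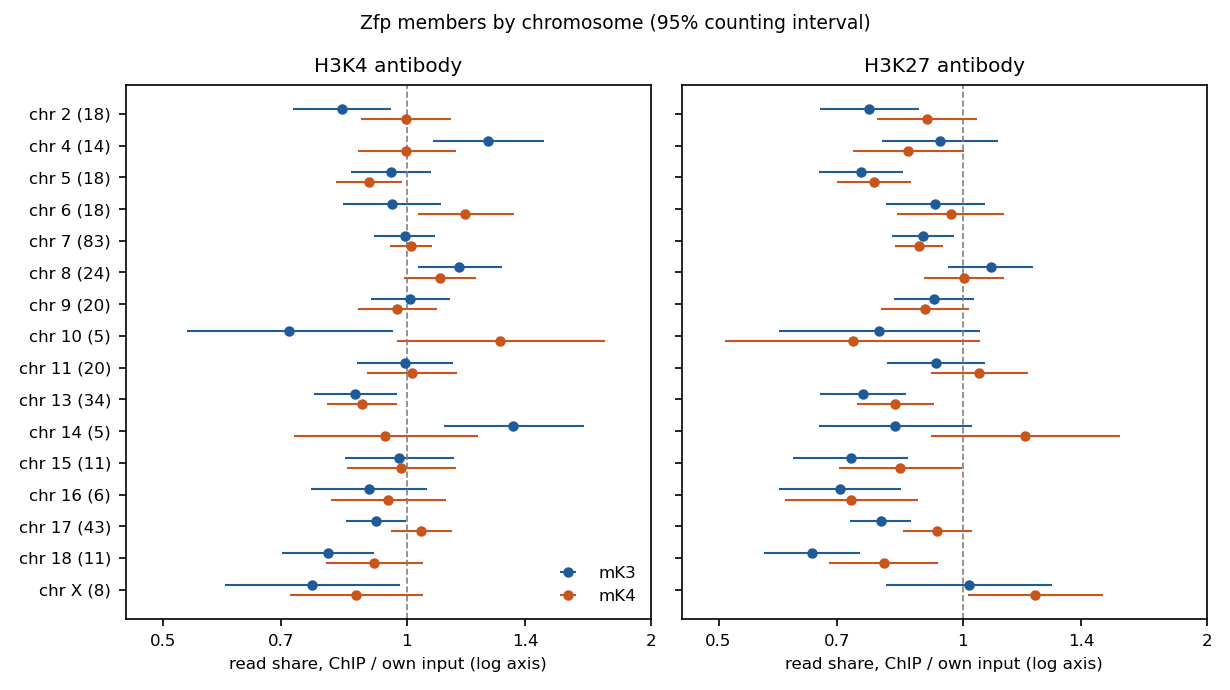
Read share of the members of each chromosome over their own input (log axis) with 95% counting intervals, for the 16 chromosomes with at least 5 members (number in brackets), the H3K4 antibody on the left and the H3K27 antibody on the right, mK3 and mK4 as points. Chromosomes 2, 5, 13, 15, 16 and 18 lie under 1 in both panels for both lines, and of these only chromosome 13 has all 4 intervals below 1. Chromosome 7, with 83 members, lies at 0.994 and 1.01 with the H3K4 antibody.

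Members that lie close together were joined into a cluster where at most 3 measured genes with other symbols stood between neighbours, in RefSeq gene order, and at least 5 members were in the run. This gave 12 clusters with 112 members, 6 of them on chromosome 7, 3 on chromosome 17 and 1 each on chromosomes 6, 11 and 13. Members in clusters stood at 0.967 in mK3 and 1.01 in mK4 with the H3K4 antibody, and members outside clusters at 0.969 and 0.988. The intervals of members inside and outside clusters overlapped in both lines, so the share did not differ beyond counting error by whether a gene lay in a cluster. The H3K27 ratios were 0.890 and 0.922 in clusters and, outside them, 0.821 and 0.879.

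The 12 clusters did not share a direction with the H3K4 antibody. Their ratios ran from 0.669 to 1.98 with a median of 1.06 in mK3, and from 0.808 to 1.55 with a median of 0.994 in mK4. The interval lay above 1 for 1 cluster in mK3, Zfp553 to Zfp689, and for 3 in mK4, Zfp786 to Zfp862, Zfp553 to Zfp689 and Zfp955a to Zfp414. It lay below 1 for 3 clusters in mK3, Zfp354c to Zfp354b, Zfp712 to Zfp273 and Zfp871 to Zfp563, and for none in mK4. No cluster's H3K27 interval lay above 1 in either line. That interval lay below 1 for 3 clusters in mK3, Zfp628 to Zfp580, Zfp712 to Zfp273 and Zfp871 to Zfp563. In mK4 it did for 2, Zfp180 to Zfp94 and Zfp84 to Zfp146.

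The cluster from Zfp553 to Zfp689 on chromosome 7, with 7 members, was the only one of the 12 whose H3K4 interval lay above 1 in both lines, although the H3K4 ratio itself was above 1 in both lines for 6 clusters. Its reads were 144 and 267 with the H3K4 antibody in mK3 and mK4, 83 and 105 with the H3K27 antibody and 38 and 100 in input. The ratio was 1.98 (1.38 to 2.91) in mK3 and 1.45 (1.15 to 1.84) in mK4. Input over this cluster was low in mK3: its reads per exon base were 0.473 times those of all genes there and level with them in mK4, while the H3K4 reads per exon base were 0.938 and 1.45 times those of all genes. The 5 other genes between its ends (Dctpp1, Sephs2, Itgal, 9130019O22Rik and E430018J23Rik) stood at 1.81 (1.18 to 2.87) and 1.25 (0.941 to 1.68), so the ratio was not seen to differ between the members and their neighbours.

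The largest cluster, from Zfp712 to Zfp273 on chromosome 13 with 19 members, lay below input in mK3 with both antibodies. It lies in the region that holds Rsl1, a KRAB zinc finger gene known for restraining male liver genes, which carries another kind of symbol and is not a member. Reads over the 19 members were 335 and 553 with the H3K4 antibody, 318 and 389 with the H3K27 antibody and 262 and 335 in input. The H3K4 ratio was 0.669 (0.567 to 0.789) in mK3 and 0.894 (0.779 to 1.03) in mK4, a difference of 1.34-fold (1.08 to 1.65) between the lines. The H3K27 ratio was 0.637 (0.539 to 0.753) and 0.933 (0.804 to 1.08), a difference of 1.46-fold (1.18 to 1.82). Both antibodies differed between the lines in the same direction, while the input share of these members was 1.03-fold higher in mK4 (0.873 to 1.22). The 4 genes between the ends whose symbols do not begin with Zfp (Rsl1, F630042J09Rik, A530054K11Rik and 4930441O14Rik) stood at 0.697 (0.505 to 0.967) in mK3 and 1.53 (1.10 to 2.18) in mK4 with the H3K4 antibody, and at 0.647 (0.465 to 0.902) and 1.17, with an interval that held 1, with the H3K27 antibody. These neighbours were thus also below input in mK3 with both antibodies. Their input share in mK4 was 0.560 times that in mK3 (0.379 to 0.822), and its part in their ratios was not tested. The cluster from Zfp871 to Zfp563 on chromosome 17 also lay below input in mK3 with both antibodies. Its ratios there were 0.835 (0.711 to 0.983) for H3K4 and 0.796 (0.676 to 0.938) for H3K27. Between the lines its H3K27 ratio differed by 1.34-fold (1.05 to 1.72), and its input share in mK4 was 0.627 times that in mK3.

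Between the ends of the 12 clusters lie 40 measured genes that are not members. Their H3K27 share over input was 1.19 (1.07 to 1.31) in mK3 and 1.37 (1.24 to 1.52) in mK4, above the members around them, whose intervals ended at 0.948 and 0.977. In 10 clusters such genes had input reads in both lines, and their H3K27 ratio was above that of the members in 7 of the 10 in mK3 and in 8 in mK4. It was below in both lines in the cluster from Zfp329 to Zfp446, at 0.706 and 0.780 against 1.01 and 0.993 for the members, and in that from Zfp677 to Zfp40, at 0.925 and 0.855 against 0.934 and 0.870, and in mK3 alone in that from Zfp712 to Zfp273. In the cluster from Zfp786 to Zfp862 the 2 genes Krba1 and Sspo together stood at 1.90 and 2.03, against 1.08 (0.902 to 1.31) in mK3 and an interval of 0.825 to 1.22 in mK4 for the 10 members. In the cluster from Zfp354c to Zfp354b the single such gene, Grm6, a glutamate receptor of retinal bipolar cells, had 53 and 34 H3K27 reads over 5 and 8 input reads, a ratio of 5.57 (2.24 to 17.8) in mK3 and 3.42 (1.55 to 8.54) in mK4. The 5 members of that cluster stood at 1.16 and 1.30. In the cluster from Zfp955a to Zfp414 the genes Olfr63, Actl9, Adamts10 and Myo1f together stood at 1.54 and 2.18, against 0.714 and 0.904 for the 5 members. With the H3K4 antibody the 40 genes stood at 0.889 and 1.18.

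**Figure D4:**
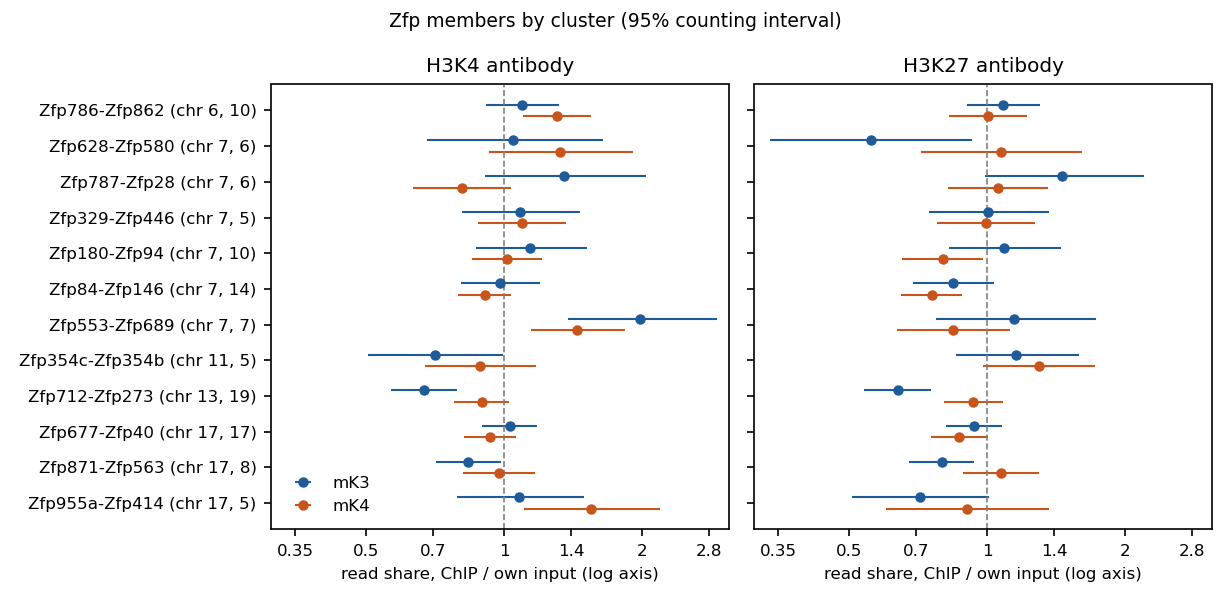
Read share of the members of each of the 12 clusters over their own input (log axis) with 95% counting intervals, named by the symbols at the ends with the chromosome and the number of members in brackets, the H3K4 antibody on the left and the H3K27 antibody on the right. With the H3K4 antibody only the cluster from Zfp553 to Zfp689 has an interval above 1 in both lines.

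Single members with at least 10 input reads in both lines are described next, with ranks taken from the mean of both lines' log2 ratios. Except for those taken by name, they were picked by these ratios, so the ratios describe them and are no evidence that they stand apart. Highest with the H3K4 antibody was Zfp830, a nuclear protein found with spliceosomes, with 139 and 103 H3K4 reads in mK3 and mK4, 30 and 35 H3K27 reads and 27 and 30 input reads. Its H3K4 share was 2.69 times input (1.77 to 4.23) in mK3 and 1.86 times (1.23 to 2.89) in mK4, and the stretch before its start, shown above, is rich in CG. Zfp324, within the cluster from Zfp329 to Zfp446, had 53 and 56 H3K4 reads, 16 and 19 H3K27 reads and 12 and 15 input reads, with H3K4 ratios of 2.31 and 2.02. Zfp622, a factor of late maturation of the large ribosomal subunit, had 102 and 93 H3K4 reads, 25 and 25 H3K27 reads and 22 and 31 input reads, with H3K4 ratios of 2.43 and 1.62. These 3 had H3K4 ratios with intervals above 1 in both lines and H3K27 ratios between 0.583 and 1.02. Zfp783, in the cluster from Zfp786 to Zfp862, was the eighth of this ranking, with 78 and 99 H3K4 reads, 94 and 51 H3K27 reads and 25 and 31 input reads.

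Zfp703, a transcriptional cofactor known from breast cancer and related to Zfp503, had 52 and 158 H3K4 reads, 28 and 31 H3K27 reads and 16 and 41 input reads. Its reads were higher in mK4 in both the H3K4 and the input library, and the ratios were 1.70 (0.955 to 3.19) in mK3 and 2.09 (1.47 to 3.02) in mK4. Zfp503, known as Nolz1 from the developing striatum, had 231 and 68 H3K4 reads, 59 and 65 H3K27 reads and 59 and 32 input reads. Here mK3 was the higher line with the H3K4 antibody, at 2.05 (1.53 to 2.77) against 1.15 (0.746 to 1.81), and mK4 with the H3K27 antibody, at 0.525 (0.360 to 0.766) against 1.63 (1.05 to 2.58). Zfp503, taken by name, is 1 of 5 members on chromosome 14, whose other genes had an input share in mK4 of 0.645 times that in mK3, and the part of this in the values of Zfp503 was not tested.

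With the H3K27 antibody the highest member was Zfp612, with 94 and 60 H3K27 reads in mK3 and mK4, 46 and 63 H3K4 reads and 14 and 21 input reads. Its H3K27 ratio was 3.53 (2.00 to 6.70) in mK3 and 2.30 (1.38 to 3.97) in mK4. Zfp92, on chromosome X, had 49 and 39 H3K27 reads, 17 and 17 H3K4 reads and 11 and 16 input reads, with H3K27 ratios of 2.34 and 1.96. Zfp541, a protein of meiotic cells of the testis, had 43 and 53 H3K27 reads, 11 and 33 H3K4 reads and 11 and 20 input reads, with H3K27 ratios of 2.05 and 2.13. Zfp423, a partner of BMP and retinoid signalling that commits cells to the fat lineage, had 65 and 41 H3K27 reads, 31 and 33 H3K4 reads and 16 and 17 input reads, with H3K27 ratios of 2.13 (1.22 to 3.95) and 1.94 (1.08 to 3.64). The H3K4 ratio of Zfp423 was 1.01 and 1.05, and its window before the start, shown above, is also rich in CG. The windows of Zfp92 and Zfp541 held 12 and 2 CG. The next were Zfp385c and Zfp518b. Of all members, 5 (1.42%, against 2.85% of all genes) were marked with this antibody in both lines, Zfp105, Zfp353, Zfp385b, Zfp612 and Zfp663, and all but Zfp612 had fewer than 10 input reads in at least 1 line.

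Lowest with the H3K4 antibody was Zfp710, with 15 and 46 H3K4 reads, 26 and 31 H3K27 reads and 28 and 55 input reads. It lay below input with both antibodies in both lines, at 0.280 and 0.453 with the H3K4 antibody and 0.488 and 0.453 with the H3K27 antibody, and 2 CG stand in the window shown above. Next came Zfp811, with H3K4 ratios of 0.374 and 0.338, and Zfp712, with 0.235 and 0.660. Zfp641, the fourth, had 22 and 26 H3K4 reads, 77 and 59 H3K27 reads and 31 and 24 input reads. Its H3K4 ratios were 0.371 and 0.587 and its H3K27 ratios 1.30 and 1.98, above 1 where those of Zfp710 were below it. The windows of Zfp811, Zfp712 and Zfp641 held 4, 13 and 20 CG, the last as many as that of Zfp830, so these low members did not share a low CG count.

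Members known from the silencing of mobile elements and from imprinting were taken by name, and several had few reads. Zfp57, which keeps DNA methylation at imprinted regions, had 40 and 42 H3K4 reads, 38 and 34 H3K27 reads and 30 and 35 input reads, with H3K4 ratios of 0.697 and 0.650 and H3K27 ratios of 0.665 and 0.781. All 4 were below 1, with intervals that held 1. Zfp809, which recognises retroviral primer binding sites, had 27 and 17 H3K4 reads, 11 and 8 H3K27 reads and 16 and 6 input reads. Its H3K27 ratio in mK3, 0.361 (0.151 to 0.828), was the only one of its 4 with an interval that did not hold 1. Zfp932, which represses endogenous retroviruses, had 10 and 4 H3K4 reads over 3 and 7 input reads, and Zfp42, a marker of pluripotent cells also called Rex1, had 8 and 10 over 3 and 4. Zfp568, which silences a placental promoter of Igf2, had 45 and 89 H3K4 reads, 38 and 61 H3K27 reads and 28 and 39 input reads, with all 4 intervals holding 1. Zfp36 (tristetraprolin), which binds AU-rich messenger RNA and is no KRAB protein, had 29 and 57 H3K4 reads, 8 and 9 H3K27 reads and 8 and 19 input reads. Its H3K27 ratio was 0.525 (0.172 to 1.61) in mK3 and 0.381 (0.152 to 0.883) in mK4.

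The genes that act with KRAB proteins were read in the same way. Of 27 measured genes for lysine 9 methylation and KRAB silencing, 2 (7.41%) were marked with the H3K4 antibody in mK3, Mphosph8 and Ehmt2. Of all genes 4.94% were marked there. None of the 27 was marked with this antibody in mK4, where 3.69% of all genes were. With the H3K27 antibody none was marked in either line, where 10.3% of all genes were in mK3 and 9.06% in mK4. Trim28 had 52 and 80 H3K4 reads, 18 and 19 H3K27 reads and 20 and 33 input reads. Setdb1 had 40 and 69 H3K4 reads, 30 and 46 H3K27 reads and 22 and 54 input reads. As a group these genes stood at 1.03 and 0.984 with the H3K4 antibody and at 0.722 and 0.684 with the H3K27 antibody.

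Between the lines, a larger share of members than of all genes was higher in mK4 in the H3K4 and input libraries. In the H3K27 libraries the share higher was nearer that of all genes, and the share lower was under it. Summed over members, the H3K27 read share in mK4 was 1.09 times that in mK3 (1.06 to 1.12). The H3K4 share was 1.05 times (1.02 to 1.08) and the input share 1.02 times (0.989 to 1.06). Once input was subtracted, the shares higher were near those of all genes. With the H3K4 antibody 29 members (8.22%) were at least 2-fold higher in mK4, against 4.51% of all genes, and 7 (1.98%) lower, against 2.99%. For H3K27 16 members (4.53%, against 3.73%) were higher and 6 (1.70%, against 3.54%) lower. In input 40 (11.3%, against 7.26%) were higher and 24 (6.80%, against 6.20%) lower. Of the 29 members higher with the H3K4 antibody 17 lie on chromosome 7, as do 27 of the 40 higher in input. On that chromosome 20.5% of members were higher with the H3K4 antibody, against 10.6% of its genes, and 27 of 83 members (32.5%) in input, against 325 of its 2035 genes. Without chromosomes 3, 7, 14 and X the shares were 3.95% of members against 1.86% of all genes with the H3K4 antibody and 3.95% against 4.25% in input. The members of chromosome 7 held 1.66 times the read share in mK4 with the H3K4 antibody, 1.61 times with the H3K27 antibody and 1.63 times in input, so all 3 kinds of library differed alike there, and the other genes of the chromosome differed by 1.54, 1.43 and 1.54 times.

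With each gene's own input difference subtracted, 29 members (8.22%, against 7.54% of all genes) were higher in mK4 with the H3K4 antibody and 25 (7.08%, against 7.36%) lower. For H3K27 28 (7.93%, against 7.35%) were higher and 25 (7.08%, against 9.23%) lower. Over all members the ratio to own input differed between the lines by 1.03-fold (0.985 to 1.07) with the H3K4 antibody and by 1.06-fold (1.02 to 1.11) with the H3K27 antibody. Among members with at least 10 input reads in both lines, Zfp507 had the largest rise in mK4, with 20 and 59 H3K4 reads over 25 and 17 input reads, followed by Zfp595 and Zfp456, both of the chromosome 13 cluster. Zfp846 had the largest fall, with 44 and 22 H3K4 reads over 11 and 16 input reads, followed by Zfp455 and Zfp949.

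Members were also grouped by the number of CG in the 250 bases before the start. The classes of 0 to 4, 5 to 9, 10 to 19 and 20 or more CG held 33, 79, 116 and 60 members. Their median log2 H3K4 ratios were -0.06, -0.06, 0.02 and -0.08 in mK3, where all genes of these classes had -0.07, -0.02, 0.02 and 0.03. In mK4 they were -0.07, -0.08, 0.07 and 0.17, where all genes had medians between -0.04 and 0.02. The members' H3K27 medians were -0.11, -0.11, -0.15 and -0.35 in mK3 and -0.21, -0.13, -0.11 and -0.17 in mK4. All genes had 0.32, 0.18, -0.20 and -0.27 in mK3 and 0.28, 0.17, -0.23 and -0.32 in mK4. Members therefore had the lower H3K27 median in both classes under 10 CG in both lines, and the higher one with 10 to 19 CG in both lines and with 20 or more CG in mK4, while with 20 or more CG in mK3 it was the lower one. These classes were chosen after the values were seen. The tables hold 1 value per gene, so the exons that encode the fingers could not be read apart from the other exons, and which lysine the antibody labelled H3K4 bound was not tested by any value given here.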

How the data were processed

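The 6 libraries of mK3 and mK4 were read from 1 table each. The counts, deposited unnormalized, are reads per gene listed beside exon length, per the file headers. RPKM as given by the authors divides these counts by exon kilobases and library size, and recomputation matched it within 1e-06. The genome was mm9 according to the submitters' processing notes, and aligner and duplicate handling are not given in the sources read here. The exon length deposited by the authors (in bases) had a median of 3495 in members and 2300 in all genes.

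For 137 symbols with several rows, the row with the most reads over the ChIP libraries was used. Shares are reads over the library's count total (311409 to 714011), and ratios of shares carry exact Clopper-Pearson 95% intervals. Intervals for differences of ratios between lines use the Poisson variance of log counts. Calls used counts scaled to 513622 reads, a pseudocount of 5 and 2-fold, a scale that understates low genes. No test was made, because a group is 1 library. Gene order, and promoters, came from RefSeq GRCm38.p6 (339 members matched by symbol, 13 by synonym, 1 unmatched). Named members are the 8 highest and 4 lowest for H3K4, the 6 highest for H3K27, and the 3 largest changes in each direction, among those with 10 input reads in both lines, plus a fixed set and each cluster by its ends. Members and lists were chosen with earlier results of these data known. Members were not split by protein features, because protein sequences were not used here. Ratios were tried on simulated counts that held counting error only, with a rise larger than 2-fold set in genes above a minimum of input reads. The 2-fold calls at low counts were not tested by it. Python 3.11.15, numpy 2.4.6, pandas 2.3.3, scipy 1.17.1 and matplotlib 3.10.9 were used.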

Additional observations from a re-analysis of the deposited data

Results flagged for a closer look

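Among the named members, 2 lay on opposite sides of input in the lines, each beyond counting error, a condition chosen after the values were seen. Zfp507 stood with the H3K4 antibody at 0.418 (0.220 to 0.785) in mK3 and 1.88 (1.08 to 3.44) in mK4. Zfp507 was named for the largest rise of this ratio in mK4, so its place on both sides of input comes with that choice. Zfp503 stood with the H3K27 antibody at 0.525 (0.360 to 0.766) in mK3 and 1.63 (1.05 to 2.58) in mK4. Its H3K27 reads were 59 and 65 and its input reads 59 and 32, and the part of input was not tested. With 1 library per group, the difference between the lines was not tested, and among this many members some intervals miss 1 through counting error alone.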

How the results depend on the processing

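The members' share over own input moved beyond its counting interval under 2 alternatives. With exon length as background it was 0.890 (mK3) and 0.934 (mK4) for H3K4 and 0.769 and 0.836 for H3K27, and with members of at least 10 input reads in both lines it was 0.932 and 0.959, and 0.773 and 0.843. Every other alternative that could change the share stayed within that interval: the other line's input, shares of the same chromosomes, leaving out the member with the most reads, and, added after seeing the data, members outside clusters only. Using all rows had to give the same share, because no member has several rows. As a share of chromosome 7's own reads, its members' H3K27 ratio in mK3 was 0.807.

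Counts of called members depend on the pseudocount, the fold and the input minimum. In this paragraph values run in the order mK3 H3K4, mK3 H3K27, mK4 H3K4, mK4 H3K27 for members at least 2-fold over input, reported as 16, 15, 9 and 10. A pseudocount of 1 gave 32, 33, 24 and 25, a pseudocount of 20 gave 1, 1, 0 and 0, 10 input reads in both lines gave 5, 2, 1 and 1, 1.5-fold gave 50, 47, 51 and 46, and 3-fold gave 1, 1, 1 and 0. Exon length as background gave 2 for mK3 H3K27, 14 for mK4 H3K4 and 3 for mK4 H3K27, and the sum of both inputs gave 7 and 8 in mK3. With a pseudocount of 1 the shares were 9.07%, 9.35%, 6.80% and 7.08% of members against 11.7%, 18.1%, 9.62% and 17.6% of all genes. At 1.5-fold they were 14.2%, 13.3%, 14.4% and 13.0% of members against 15.3%, 23.0%, 13.1% and 21.4% of all genes. At 3-fold they were 0.283%, 0.283%, 0.283% and 0% against 0.697%, 2.25%, 0.419% and 1.66%. A pseudocount of 20 gave 0.283%, 0.283%, 0% and 0% against 0.634%, 1.77%, 0.419% and 1.59%. For H3K27 the members' share stayed below that of all genes in all 8 alternatives in each line. For H3K4 it was below in 6 of 8 in mK3 and in 7 of 8 in mK4.

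Between the lines the counts are given as higher and lower in mK4. For H3K4 (29 and 7) a pseudocount of 1 gave 45 higher, 20 gave 7 and 1, 1.5-fold gave 72 and 39, 3-fold gave 4 and 1, 10 input reads gave 15 higher, and without chromosomes 3, 7, 14 and X 10 were higher. The share higher with H3K4 was above that of all genes in all 8 of its alternatives (6.70% against 4.40% with 10 input reads). The share lower with H3K4 was below that of all genes in 7 of 8. For H3K27 (16 and 6) a pseudocount of 1 gave 32 and 16, 20 gave 3 and 0, 1.5-fold 61 and 34, 3-fold 1 and 0, and 5 were higher without the chromosomes. The share higher with H3K27 was above that of all genes in 6 of 8 alternatives, and the share lower was below it in all 8. For input (40 and 24) a pseudocount of 20 gave 6 and 1, 1.5-fold 73 and 63, 3-fold 4 and 3, 10 input reads 8 and 9, and 10 were higher without the chromosomes. The share higher in input was above that of all genes in 5 of 8 alternatives and below it in 3. Those 3 were 10 input reads (3.57% against 3.66%), 3-fold (1.13% against 1.68%) and without the chromosomes (3.95% against 4.25%). The share lower in input was above that of all genes in 3 and below it in 5. For H3K4 over own input (29 and 25) a pseudocount of 1 gave 47 higher, 20 gave 6 and 1, 1.5-fold 73 and 61, 3-fold 5 and 1, 10 input reads 13 and 4, and 12 were lower without the chromosomes. For H3K27 over own input (28 and 25) a pseudocount of 1 gave 47 and 45, 20 gave 2 and 1, 1.5-fold 74 and 64, 3-fold 3 and 1, 10 input reads 13 and 7, and 12 were lower without the chromosomes. Over own input, the share higher was above that of all genes in 6 of 8 alternatives with H3K4 and in 5 of 8 with H3K27. The share lower was below that of all genes in all 8 with each antibody. Apart from the alternatives that change the pseudocount, fold or set of genes by construction, the cause was not tested. Median-of-ratios scaling and centring on all genes moved no count of these by over 1.5 times.

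No paired analysis was possible because each group has 1 library. Depth limits single members: 129 of 353 had fewer than 10 input reads in at least 1 line.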
